A study of Mus musculus with 2 samples.

Results

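The genes described here encode chromatin remodellers and their partners in CD4 T cells of Menin WT and Menin KO mice. They were taken as a list of 39 genes of the Arid, SWI/SNF, ISWI, Chd, BET and INO80 families, and their probes are the non-control probes whose transcript accession belongs to one of these genes. Named probes were found for 37 of the 39, out of 18434 named genes on the arrays. Brd2 and Chd7 had no named probe and have no values here. The 37 genes were read by 89 different probes, 87 of them well above background on both arrays, and each of the 37 had at least 1 such probe.

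Total RNA was measured on 2 single-colour Agilent arrays, 1 of Menin WT cells and 1 of Menin KO cells. Both samples were primary CD4 T cells from the spleen of female C57BL/6J mice. Naive cells selected for CD4 and CD62L were stimulated for 2 days on plates coated with an antibody against TCR-β (3 µg/ml) with antibody to CD28 (1 µg/ml) and IL-2 (2.5 ng/ml), and were then kept in the same amount of IL-2 for 3 days. The age of the mice, the way the Menin gene was deleted and the number of animals behind each sample are not given in the sources used here. The comparison asks which genes differ when Menin, a nuclear partner of MLL histone methyltransferases, is missing.

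Remodellers use the energy of ATP to slide, eject or exchange nucleosomes. SWI/SNF complexes are built around the ATPase Smarca4 or Smarca2, ISWI complexes around Smarca5, and the Chd proteins are ATPases with paired chromodomains that read histone tails. Arid proteins share a DNA-binding domain, and bromodomain proteins bind acetylated histones. In T cells these machines open and close the loci of lineage factors and cytokines after activation.

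All differences below are KO minus WT on the log2 scale, after the 75th percentile of the processed signal was set equal on the arrays. It was 644 for WT and 650 for KO, where 59.5% and 63.5% of non-control spots were well above background. A gene with several probes is given by its brightest probe. With 1 array in each group no difference could be tested and none has a p-value. The only error that could be measured is the scatter between repeated spots of a probe within these arrays. For probes with a signal of 100 or more the difference between the arrays had a pooled SD of 0.0541 from spot to spot (110 probes), and for dimmer probes 0.314 (36 probes). This scatter leaves out the spread between mice, cultures, RNA preparations and hybridisations.

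The label of the KO sample was checked on the targeted gene. Men1, which encodes Menin, read 1081 in WT and 459 in KO on its 1 probe, which is 2.38-fold lower. Where that probe lies relative to the deleted part is not known here, so its remaining signal does not measure the deletion.

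Most remodeller genes were moderately lower in the KO array, and few were far apart. Of 37 measured, 32 lay below 0 and 5 above, whereas 50.5% of all 13515 named genes measured lay below 0. The median difference was -0.36, beside -0.01 for all genes, and the interquartile range ran from -0.59 to -0.10. After a normexp background correction of the spot signals as given, the medians were -0.16 for the members and -0.07 for all genes, so the gap was smaller. With the aberrant backgrounds that this correction took in replaced, they were -0.30 and -0.04. At the 2-fold limit 2 genes were lower, Arid4a and Chd3, which is 5.41% of the members beside a background of 5.14%. No member was at least 2-fold higher, beside 10.8% of all genes. At 1.5-fold 10 members were lower (27.0%, beside 12.7%) and 1 was higher, Arid3a (2.70%, beside 17.3%). Some of these 10 fell short of 1.5-fold under loess or normexp as given. The share 2-fold lower was thus close to that of all genes. In such bulk samples, fewer cells of a type and less RNA per cell cannot be told apart.

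**Figure D1:**
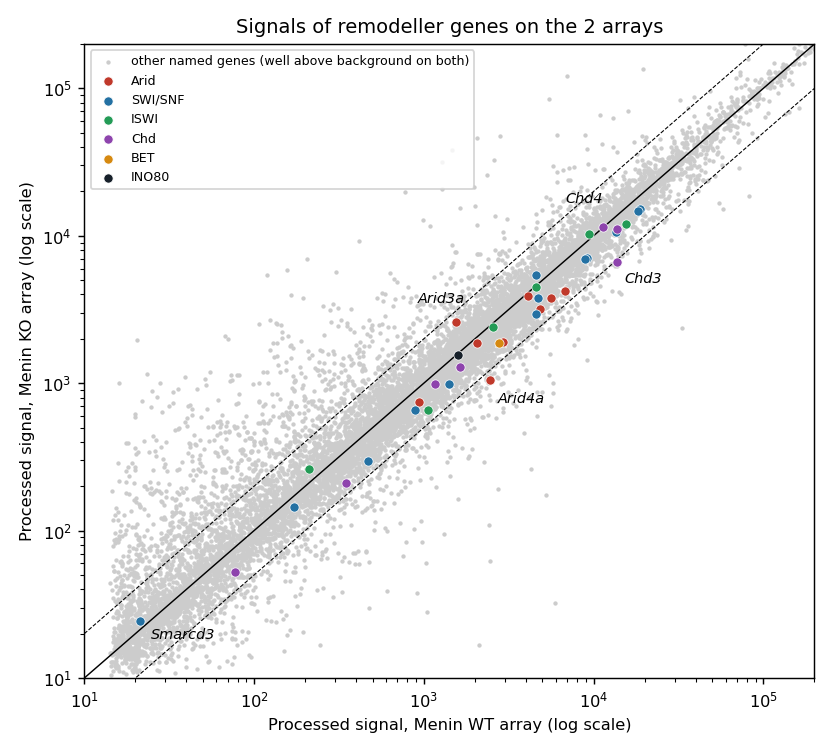
Processed signal of each gene on the Menin WT array (x axis) and the Menin KO array (y axis), both on log scales, with remodeller genes coloured by family and other named genes in grey; the solid line marks equal signals and the dashed lines a 2-fold ratio. Most coloured points lie just under the solid line, Chd3 and Arid4a lie on or outside the lower dashed line, and Arid3a lies above the solid line.

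Repeated probes of a gene mostly gave similar differences. Among the 27 members with several probes well above background on both arrays, 24 had all their probes on one side of 0, and in none did probes differ by 2-fold or more. Over all 4414 named genes with several such probes, 3516 had them on one side and 132 had probes at least 2-fold apart. The pooled SD between probes of a gene was 0.153 for the members (77 probes) and 0.269 for all genes. The members were also brighter, with a median WT signal of 2913 beside 755 for all genes. Agreement between probes was not compared at equal brightness. Of the 87 member probes, 76 lay below 0 (87.4%), beside 54.4% of all 18209 named probes read on both arrays. The 11 probes above 0 belonged to Arid3a, Smarcd3, Smarce1, Baz1a, Baz2a, Baz2b and Chd1.

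**Figure D2:**
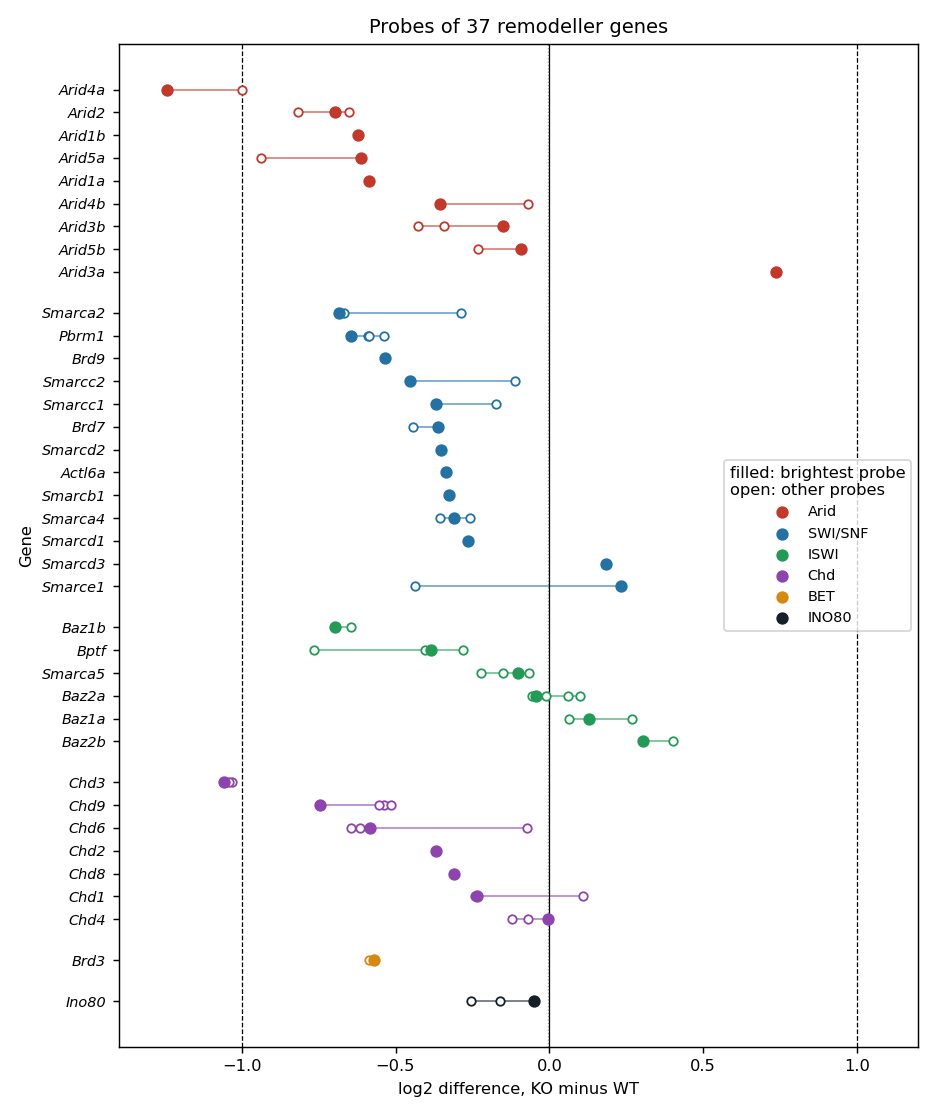
Log2 difference, KO minus WT (x axis), of each member gene (y axis, grouped by family), with a filled point for the brightest probe, open points for its other probes that were well above background on both arrays, and a line over their range; dashed lines mark 2-fold. The 4 Chd3 probes sit together at the lower 2-fold line, whereas the 2 Smarce1 probes lie on opposite sides of 0.

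The stretches just upstream of the start sites were described by their base content and by short motifs. The 250 bases before the start were read from the RefSeq promoter table (GRCm38.p6) for 30 of the 39 genes, as 37 windows because some genes have several starts, and the windows of Chd4 and of Brd9 overlap. Arid2, Arid3a, Arid4a, Baz1a, Chd1, Chd2, Chd3, Chd7 and Smarce1 had no entry. The median window of the members held 21 CpG pairs and 67.2% G and C, beside 6 CpG pairs and 52.4% over 32841 windows of all genes. The core letters of ETS factor sites, CCGGAA on either strand, were in 12 of the 37 windows (32.4%, beside 12.0% of all windows). Both overlapping Brd9 windows are among these 12. The windows of all genes were not limited to genes measured on these arrays or matched to the members in base content, and CCGGAA itself holds a CpG pair. None of the motif shares given here was compared at equal base content. The letters TGANTCA, shared by AP-1 and Bach factors, were in 1 window, that of Smarcb1 (2.70%, beside 6.75%). CCAAT was in 9 windows (24.3%, beside 33.9%) and TATAAA in 3 (8.11%, beside 12.4%). A match describes letters in a window and is no evidence of binding, and none of these motifs contains another. The windows of 4 genes are printed, 5′ to 3′ on the gene's strand, with any of these motifs in capitals. Pbrm1 and Smarca2 are lower members whose windows are rich in CpG and hold an ETS core (CCGGAA, read as TTCCGG on the other strand), and Baz1b and Baz2b are relatives that lay on opposite sides of 0, although Baz2b was at -0.09 under normexp as given. They lie at chr14:31018888-31019137 (plus strand, Pbrm1), chr19:26604910-26605159 (plus, Smarca2), chr5:135187073-135187322 (plus, Baz1b) and chr2:60125741-60125990 (minus, Baz2b).
Pbrm1: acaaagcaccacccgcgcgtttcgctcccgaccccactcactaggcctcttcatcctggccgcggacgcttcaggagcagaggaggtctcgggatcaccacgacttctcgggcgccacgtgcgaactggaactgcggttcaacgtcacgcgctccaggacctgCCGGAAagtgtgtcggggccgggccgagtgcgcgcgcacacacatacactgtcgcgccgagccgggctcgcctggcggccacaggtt
Smarca2: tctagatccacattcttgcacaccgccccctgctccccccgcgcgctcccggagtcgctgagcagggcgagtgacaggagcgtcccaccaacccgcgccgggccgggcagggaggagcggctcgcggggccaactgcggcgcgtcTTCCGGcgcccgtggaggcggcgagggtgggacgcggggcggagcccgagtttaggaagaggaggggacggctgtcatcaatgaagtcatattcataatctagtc
Baz1b: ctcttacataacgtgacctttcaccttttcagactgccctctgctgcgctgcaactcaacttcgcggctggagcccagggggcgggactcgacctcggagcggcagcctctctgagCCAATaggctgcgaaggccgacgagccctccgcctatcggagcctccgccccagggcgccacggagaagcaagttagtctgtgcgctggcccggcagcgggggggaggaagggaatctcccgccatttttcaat
Baz2b: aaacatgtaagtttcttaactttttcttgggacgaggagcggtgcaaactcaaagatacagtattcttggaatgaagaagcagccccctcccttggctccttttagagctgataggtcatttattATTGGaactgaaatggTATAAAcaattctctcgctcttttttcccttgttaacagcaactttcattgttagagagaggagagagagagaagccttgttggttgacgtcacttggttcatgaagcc
The CpG count was 31 in the Pbrm1 window, 28 in Smarca2, 20 in Baz1b and 4 in Baz2b, whose window holds TATAAA and ATTGG, which is CCAAT on the other strand. The Baz1b window holds CCAAT.

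Among the ATPases of SWI/SNF, Smarca2 was further apart than Smarca4. Smarca4, which encodes BRG1, had signals of 18782 in WT and 15280 in KO (difference -0.31), and its 3 probes ran from -0.36 to -0.26. Smarca2, which encodes the alternative ATPase BRM, had 472 in WT and 297 in KO (-0.68, 1.61-fold lower). Its 3 probes ran from -0.68 to -0.29, the last of them dim.

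Subunits taken here to mark a form of the complex had a lower median difference than the core and accessory subunits. Both groups were chosen with earlier results of these data known, so their contrast is a description without a test. Arid1a, the DNA-binding subunit of the canonical BAF form, read 5595 in WT and 3760 in KO (-0.59). Its alternative Arid1b had 2913 and 1909 (1.54-fold lower), and both Arid1b probes gave -0.62. These mutually exclusive subunits were thus equally apart, with 0.04 between their differences. Arid2, found in the PBAF form instead, had 6800 and 4237 (1.62-fold lower), with 3 probes from -0.82 to -0.65. Pbrm1, the subunit of PBAF with several bromodomains, had 4571 and 2947 (1.57-fold lower), and its 4 probes ran from -0.65 to -0.54. Brd7, also of PBAF, was closer, with 13552 and 10648 (-0.36). Brd9, which marks the non-canonical form without Arid subunits, had 1414 and 984 (-0.54). All 6 of these lay below 0, beside 50.5% of all genes, with a median of -0.60.

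The core and accessory subunits had a median of -0.33, with 6 of 8 below 0 (75%, beside 50.5% of all genes) and none 1.5-fold apart. This group holds paralogs and is not a set shared by every form. Smarcb1, the core subunit SNF5, read 18322 in WT and 14746 in KO (-0.33). The scaffold paralogs Smarcc1 (9092 and 7099, -0.37) and Smarcc2 (888 and 654, -0.45) were close to each other, and the second probe of each was dimmer and nearer to 0 (-0.17 and -0.11). Smarcd1 (-0.26), Smarcd2 (-0.35) and the actin-related Actl6a (-0.34) lay in the same range, each read by 1 probe. Smarcd3, the paralog known from muscle, was near the detection limit on both arrays, with 21.4 and 24.5 (0.18), a difference within the scatter of dim spots. Smarce1, the HMG-box subunit BAF57, cannot be given a direction. Its brighter probe read 4581 in WT and 5433 in KO (0.23), and its other probe 2773 and 2067 (-0.44). Over the 13 genes of the SWI/SNF list, which includes Pbrm1, Brd7 and Brd9, 11 lay below 0 (84.6%, beside 50.5% of all genes), with a median of -0.35. After normexp as given this median was -0.10, with Smarca4 at -0.04 and Smarcb1 at -0.07.

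The Arid genes that are not SWI/SNF subunits held the lowest and the highest values of all members. Arid4a, a retinoblastoma-binding partner of the Sin3 histone deacetylase complex, read 2463 in WT and 1049 in KO, which is 2.37-fold lower. Its second probe read 583 and 294, just short of 2-fold. Its paralog Arid4b, of the same complex, was nearer to 0, with 940 and 741 (-0.36), and its other probe was dim (26.4 and 25.4, -0.07). The differences of these paralogs were 0.89 apart. Arid5a, an RNA-binding protein that stabilises cytokine transcripts, had 4818 and 3184 (1.53-fold lower), with its other probe at -0.94. Arid5b, a partner of the demethylase Phf2, was nearly equal, with 4123 and 3907 (-0.09). Arid3a, also called Bright and known from B cells, was the only member at least 1.5-fold higher in KO, with 1545 in WT and 2598 in KO (1.67-fold) on its single probe. Arid3b, its paralog, had 2059 and 1871 (-0.15) and further probes at -0.43 and -0.34, so this pair lay on opposite sides of 0, although the brightest Arid3b probe was at 0.07 under normexp as given. The 6 Arid genes outside SWI/SNF had a median of -0.25, with 5 below 0 (83.3%, beside 50.5% of all genes). Of them 2 were at least 1.5-fold lower (33.3%, beside 12.7%) and 1 was at least 1.5-fold higher (16.7%, beside 17.3%). With Arid1a, Arid1b and Arid2 added, 8 of the 9 Arid genes lay below 0 (88.9%, beside 50.5% of all genes). At least 1.5-fold lower in the processed signal were 5 of the 9 (55.6%, beside 12.7% of all genes). This count depended on the processing. Under loess Arid1a (-0.54), Arid1b (-0.56) and Arid5a (-0.56) fell short of 1.5-fold. Arid1a also fell short in the authors' value table (-0.56). Under normexp as given only Arid4a (-0.99) was still at least 1.5-fold lower. The median of the 9 was -0.59 (-0.36 under normexp as given).

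Of the 7 Chd genes measured, 6 were lower and Chd4 was equal, whereas 50.5% of all genes lay below 0. The median of the 7 was -0.37 (-0.18 under normexp as given), and the best known pair of the family differed widely. Chd3 and Chd4 are the alternative ATPases of NuRD, a complex that joins remodelling with histone deacetylation. Chd3 read 13767 in WT and 6678 in KO on its brightest probe, a 2.08-fold lower value. Its other probes read 10974 and 5331, 4824 and 2382, and 260 and 127, so probes whose signals spanned a wide range gave differences only from -1.06 to -1.03. Chd4 read 11430 in WT and 11496 in KO (-0.0046, but above 0 after either normexp correction, loess or in the authors' value table), and its other probes gave -0.07 and -0.12. Their differences were 1.05 apart, which could not be set against any spread between samples. Chd3 was the member just past the 2-fold limit, and Chd9 was the next one short of it.

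The other Chd genes lay between these. Chd9, of one subfamily with Chd6 to Chd8, was dim, at 348 in WT and 209 in KO (1.68-fold lower), and its 4 probes ran from -0.75 to -0.52. Chd6 was dimmer still, with 77.5 and 52.3 (-0.58), 3 of its 4 probes between -0.64 and -0.58 and the fourth at -0.07. Chd8, a regulator of beta-catenin and p53 targets, had 13754 and 11204 (-0.31) on 1 probe. Chd1, which binds trimethylated lysine 4 of histone H3, had 1157 and 991 (-0.24). Its other probes read 776 and 661 (-0.24) and 80.6 and 87.6 (0.11), so only the dim one was above 0. Its relative Chd2 had 1642 and 1283 (-0.37).

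The ISWI genes had a median of -0.07, the nearest to 0 among the families with several genes, and members on both sides of 0. The ATPase Smarca5, also called SNF2H, read 2572 in WT and 2418 in KO (-0.10), and its 4 probes ran from -0.22 to -0.07. Of its partners, Baz1a, the ACF1 subunit that spaces nucleosomes, was slightly higher in KO, with 9397 and 10363 (0.13) and all 3 probes above 0. Baz1b, the Williams syndrome transcription factor, was lower, with 1064 and 662 (1.62-fold), and its second probe gave -0.64. The differences of Baz1a and Baz1b were thus 0.83 apart. Baz2a, which silences ribosomal DNA as TIP5, was nearly equal, with 4575 and 4479 (-0.04) on the brightest probe. Its other 4 probes gave -0.06, -0.01, 0.06 and 0.10, straddling 0. Baz2b read 210 and 262 (0.31), with its other probe at 0.40. Bptf, the largest subunit of NURF and a reader of histone H3 trimethylation, read 15581 and 12035 (-0.39), and its 4 probes ran from -0.77 to -0.28.

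Brd3, the BET family member that binds acetylated histones and transcription factors, read 2769 in WT and 1882 in KO (1.48-fold lower), and both probes gave nearly the same value (-0.59 and -0.57). Ino80, the ATPase of the complex that exchanges histone H2A variants, was nearly equal, with 1584 and 1544 (-0.05) on its brightest probe and -0.25 on its lowest.

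Other genes of the same complexes and families, 94 in 7 lists, lay nearer to 0 on the whole. Of 86 measured, 66 lay below 0 (76.7%, beside 50.5% of all genes), and the median was -0.22. At least 2-fold lower were 4 (4.65%, beside 5.14%), and 2 were at least 2-fold higher (2.33%, beside 10.8%). The share 2-fold lower was thus close to that of all genes. A bound under 2-fold was found for 1 gene. The 11 measured NuRD partners of Chd3 and Chd4 ran from -0.64 to 0.43 with a median of -0.12, none of them 2-fold apart. The 19 subunits of INO80, SRCAP and TIP60 had a median of -0.13, and again none was 2-fold apart. The 14 other SWI/SNF subunits had a median of -0.21. Among them Bcl11b, a zinc finger factor needed for T cell identity that also associates with BAF, was 4.25-fold lower (7667 and 1820), and its second probe gave -2.53. The 19 other bromodomain genes had a median of -0.41, with 16 below 0 (84.2%, beside 50.5% of all genes). In that list the acetyltransferase gene Kat2b was 2.38-fold lower (679 and 288) and the coactivator Crebbp 2.25-fold lower (119 and 53.6). The latter was 1.69-fold lower after a normexp background correction with aberrant backgrounds replaced. The 13 other SNF2 ATPases had a median of -0.22, and Zranb3, which restarts stalled replication forks, was 2.50-fold lower (722 and 292).

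The remaining lists were short and partly dim. The 4 other ISWI partners measured had a median of -0.32. Smarca1, the ISWI ATPase SNF2L, was well above background in KO only (3.28 in WT and 119 in KO), which gives at least 8.42-fold higher. It was at least 1.92-fold higher after normexp with aberrant backgrounds replaced, and had no usable bound under normexp as given. The 6 other Arid and Chd genes had a median of -0.07. Chd5, known from neurons, was 2.03-fold higher on a dim probe (17.9 and 36.7), but its difference was -0.90 after normexp and 0.08 with aberrant backgrounds replaced, so no direction can be given.

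**Figure D3:**
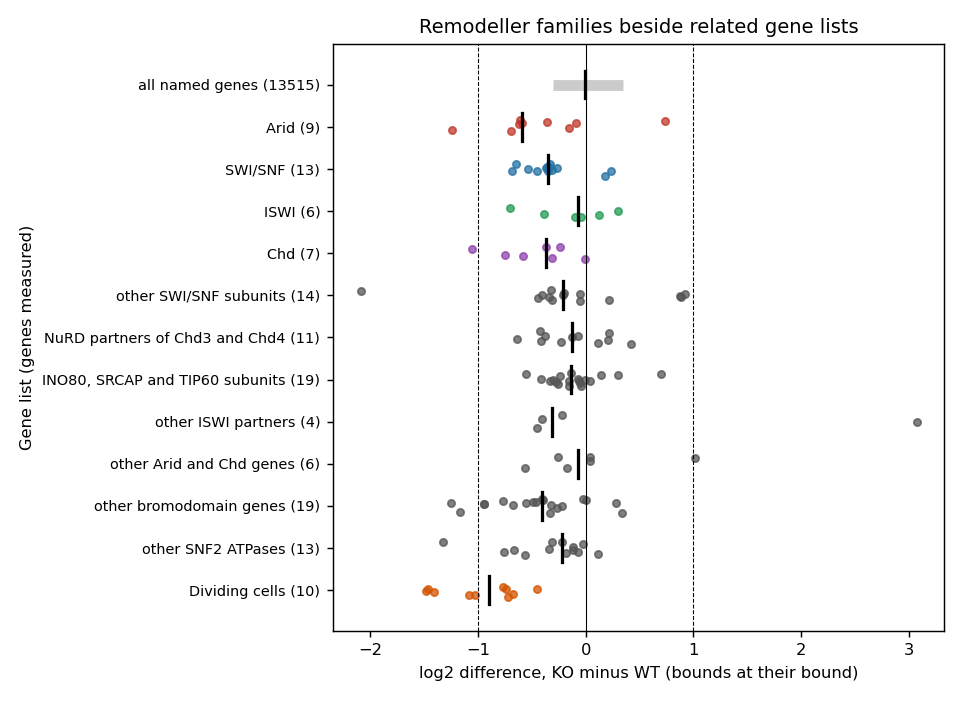
Log2 difference, KO minus WT (x axis), of each gene (points) in the remodeller families, related lists and markers of dividing cells (y axis, genes measured in brackets), with black bars at medians, a grey band over the interquartile range of all named genes and dashed lines at 2-fold. The Arid median lies at -0.59, the ISWI median near 0 and the median of the dividing cell markers at -0.90.

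Markers of cell state and of other cell types were read on the same arrays. All 10 markers of dividing cells were below 0 (100%, beside 50.5% of all genes), 5 of them at least 2-fold (50%, beside 5.14%). Their median was -0.90 and their summed signal 205998 in WT and 115412 in KO. All 7 markers in the CD4 T cell list were well above background on both arrays, with a median of -0.25 and a summed signal of 144009 and 122559. Their differences ran from -1.21 (Cd2) to 0.37 (Cd3g), with 6 below 0 (85.7%, beside 50.5% of all genes). Apart from Cd4 they are genes of T cells in general, so these values do not measure the share of CD4 cells. Cd4 itself read 443 in WT and 279 in KO. Cd8a, which marks CD8 T cells, read 312 and 3213, and Cd8b1 had no named probe. The summed signal was 1590 and 3910 for 4 NK cell markers, 900 and 1593 for 4 B cell markers, 191 and 448 for 5 macrophage and monocyte markers (median difference 0.0025, with Cd14 and Adgre1 higher, Lyz2 and Csf1r lower), and 74.2 and 604 for 3 of 4 mast cell and basophil markers. Ms4a2, the fourth of these, was not well above background in WT or KO. The part of dividing cells or of other cell types in the differences of remodeller genes was not tested.

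Processing moved some of these values. After normexp background correction as given, Chd3 was 1.73-fold and Arid4a 1.99-fold lower, so neither reached 2-fold, and the dim genes Chd6 (-1.04) and Smarcd3 (-1.18) passed it instead. That correction also turned the split of all genes 2-fold apart, from 1459 higher and 694 lower to 601 and 1701. A local background over 200 was found around 6 WT spots and 0 KO spots. With those backgrounds replaced, Chd3 was 2.01-fold and Arid4a 2.22-fold lower, and neither Chd6 nor Smarcd3 was 2-fold apart.

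**Figure D4:**
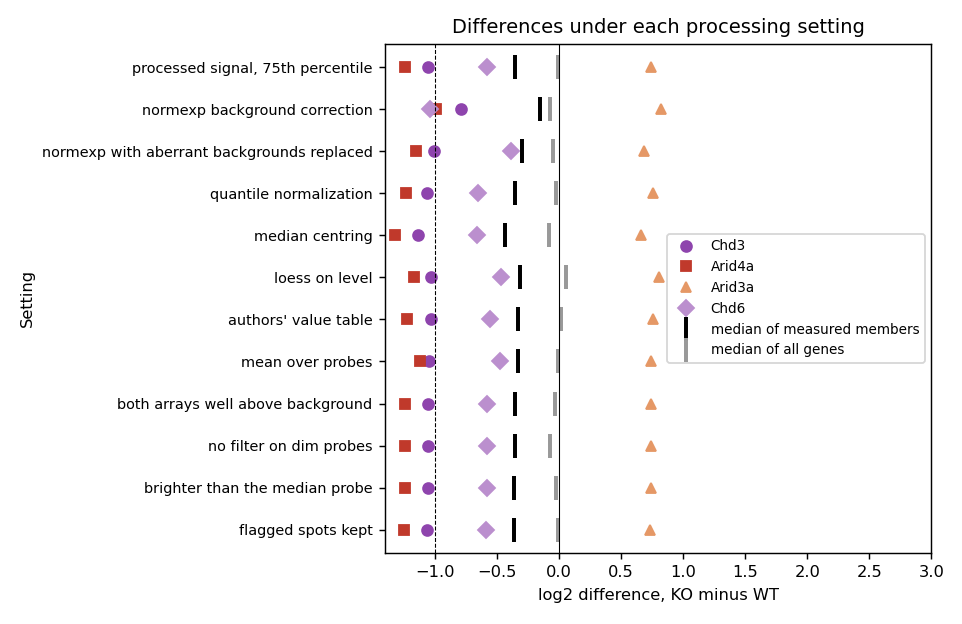
Log2 difference, KO minus WT (x axis), of Chd3, Arid4a, Arid3a and Chd6, with the medians of the measured members (black bars) and of all genes (grey bars), under each processing setting (y axis); the dashed line marks 2-fold lower. The black bar lies left of the grey bar in every setting drawn, and Chd3 lies right of the dashed line only under normexp as given.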

How the data were processed

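The authors deposited 1 scanner file per array. Per the file headers the software was Agilent Feature Extraction, version 10.7.3.1 (given as 10.7 by the submitters' processing notes), with design annotation on mm9, and the files hold the processed signal as a background-subtracted intensity on a linear scale, with no scaling between arrays. The deposited value table holds log2 values of the same arrays. Set against the scanner files they equal the log2 processed signal shifted by 1 constant for each array, within 0.01 for 99.7% of probes on either array, so scale, centring and direction are known (column medians -3.97 for WT and -3.90 for KO).

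Outlier spots, by the software's non-uniformity and population flags, were dropped (115 on WT and 103 on KO of 43379 non-control spots), and no spot was saturated. Each array's log2 signal minus its 75th percentile was averaged over the spots of a probe. Of 41174 probes, 27050 were named through the RefSeq gene table of GRCm38.p6, by accession without version. A gene is represented by its brightest probe (mean of both arrays) that was well above background on 1 array or more. A gene well above background on 1 array only entered as a bound, its bright value set against the dim value or that array's detection limit (its lowest well-above-background level), whichever was higher. The alternatives were normexp correction (limma 3.58.1, offset 50) of median spot signals, also with local backgrounds over 200 replaced, quantile, median and loess normalization, the value table, the mean over probes, other filters, kept flags and a 1.5-fold limit. Probes with at least 5 usable spots gave the spot scatter. The procedure was tested on simulated data. The number of arrays limits the precision.

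Members, families, lists, pairs and groupings by role were chosen with earlier results of these data known. Named genes are Men1, every member, and genes of the other lists at least 2-fold apart (at most 4 a list), with the defining markers. Bach2, also in that rule, is not described here since no result turns on it.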

Additional observations from a re-analysis of the deposited data

How the results depend on the processing

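The count of members at least 2-fold higher was 0 and that at least 2-fold lower was 2 under all 11 alternatives to the processing. The count hides a change of genes: Arid4a and Chd3 made it up in 10 of these, and Chd6 and Smarcd3 under normexp as given. At a 1.5-fold limit, applied to the processed signal only, the counts were 1 higher (2.70%, beside 17.3% of all genes) and 10 lower (27.0%, beside 12.7%). Some of these 10 fell short of 1.5-fold under other alternatives. Arid1a, for one, was at -0.54 under loess and -0.36 under normexp as given, and Baz1b at -0.58 under normexp as given. The median over measured members was -0.16 under normexp as given, beside -0.07 for all genes, and between -0.43 and -0.30 under the other alternatives. From 28 (normexp as given) to 32 members lay below 0. Over all genes the share below 0 ran from 44.1% (loess) to 57.2% (median centring), with 54.9% under normexp as given. Normexp as given moved 28 of 37 members by more than the spot scatter of all repeated probes (0.160), the mean over probes moved 3, normexp with aberrant backgrounds replaced 2, and the others none. Normexp as given also set the split of all genes at 601 higher and 1701 lower, of 12761. The split was 1459 and 694 of 13515 in the processed signal, and 760 and 369 of 13212 with backgrounds replaced. Without any filter on dim probes it was 2121 and 1113, of 18430. The same count of 2 lower members thus stood beside a background that differed between settings. The signs of Arid3b, Arid5b, Baz2a, Baz2b, Chd4, Ino80, Smarca5, Smarcd3 and Smarce1 differed between alternatives. No paired analysis was possible because each group is 1 array, and none could be left out. Signals under 100 had wide spot scatter, which limits Chd6 and Smarcd3.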

Other observations

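Of the 89 member probes, 2 were not well above background on either array, and both belong to Arid5b (11.2 in WT and 9.45 in KO, and 9.48 and 5.84). The other Arid5b probes read 4123 and 3907, and 792 and 680. For Bptf, the probe with the lowest difference (-0.77) was its dimmest, at 57.1 in WT and 33.9 in KO.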
